A study of Mus musculus with 8 samples.

Results

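ATF4 and its regulatory partners, the enzymes and effectors that ATF4 is known to switch on, and the cytosolic aminoacyl-tRNA synthetases were followed through whole mouse embryos. The 33 genes were chosen by symbol, and all 33 were found among the 21182 gene symbols listed. They comprise 4 regulators (Atf4, Atf5, Ddit3 and Trib3), 9 target enzymes and effectors (Asns, Chac1, Psat1, Phgdh, Sesn2, Vldlr, Shmt2, Mthfd2 and Aldh18a1) and 20 cytosolic tRNA synthetases. The tested embryos are 4 labelled TKO, a triple knockout of the DNA dioxygenases Tet1, Tet2 and Tet3, and they were set against 4 labelled Control. All 8 were single, whole, C57BL/6 embryos of embryonic day E6.75, shortly before or at the onset of gastrulation. The labels give neither the alleles nor the breeding behind the triple knockout or the Control embryos, and no litter, sex or batch. Levels are RPKM, reads per kilobase of gene model per 1000000 mapped reads, a unit that divides by gene length and read total. Differences between embryos still depend on how the embryos are scaled, as the counts under median-ratio scaling below show.

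ATF4 is a bZIP transcription factor at the end of the integrated stress response. Kinases that sense amino acid shortage, unfolded protein, heme lack or viral RNA phosphorylate the initiation factor eIF2, which slows general translation while the Atf4 mRNA, with its upstream open reading frames, is translated more. The control of ATF4 is therefore largely translational, and RNA levels do not measure its protein. ATF4 binds with C/EBP-family partners to C/EBP-ATF response elements and raises genes for amino acid synthesis, amino acid uptake and tRNA charging. Aminoacyl-tRNA synthetases attach each amino acid to its tRNA, and every translating cell needs them.

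Tet1, the targeted gene with the highest level, went against the label. It stood at 15.3, 9.504, 9.21 and 11.7 RPKM in TKO-labelled embryos, against 5.04, 5.25, 4.93 and 5.76 RPKM in Control embryos, a difference of 0.97 in log2(RPKM + 1) (limma adjusted p = 0.103). Tet2 averaged 0.784 ± 0.172 RPKM in TKO-labelled and 0.725 ± 0.189 RPKM in Control embryos (SD, n = 4 each), and Tet3 1.38 ± 0.246 RPKM in TKO-labelled and 1.85 ± 0.155 RPKM in Control embryos, with all TKO-labelled values of Tet3 below the Control values. A level over a whole gene cannot show whether a deleted exon is missing, so the embryos are called TKO-labelled throughout. Estimated depth was 9.9 to 18.96 M reads (M for 1000000) in TKO-labelled embryos and 12.38 to 16.42 M reads in Control embryos.

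No ATF4-pathway or synthetase gene passed the test between the groups. Most of the tested genes nevertheless had higher values in TKO-labelled embryos, with 26 of 31 differences positive. The values of Psat1, which makes the precursor of serine, of Mars, the methionyl-tRNA synthetase, and of Hars lay higher without overlap between the groups. That is 3 of 31 genes (9.68%), near the 7.55% of all tested genes, and it was 0 under median-ratio scaling. Atf4 itself was level, and Atf5 was the gene with the clearest lower values. The median difference was 0.21 in log2(RPKM + 1) over the 31 tested genes, against 0.09 over all 10451 tested genes, whose values also leaned towards the TKO-labelled embryos (66.5% positive, against 83.9% of the 31).

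A gene was tested where its RPKM was at least 1 in at least 4 embryos, which left out Chac1 and Vldlr. The test was limma's on log2(RPKM + 1), and its p-values, after Benjamini-Hochberg adjustment across the 10451 tested genes, were held against 0.05. Of the 31 genes, 0 passed in either direction, with adjusted p from 0.182 to 0.998, while 0.00957% of all tested genes passed higher and 0% passed lower in TKO-labelled embryos. At an unadjusted limma p under 0.05, 9 genes were higher (Psat1, Sesn2, Aldh18a1, Asns, Mars, Wars, Iars, Kars and Dars) and 1 lower (Atf5), where the background was 13.9% of all tested genes higher and 3.6% lower. All 4 TKO-labelled values lay above all 4 Control values for 3 of the 31 genes (Psat1, Mars and Hars), against a background of 7.55%, and below them for 1 gene (Atf5), against 1.86%. Under median-ratio scaling of the embryos, the count at an unadjusted p under 0.05 was 3 higher and 1 lower among the 31 genes, and 0 genes had all TKO-labelled values above the Control values. Over all tested genes the same scaling turned 1448 higher and 376 lower into 839 higher and 673 lower. The 9 higher genes became 4 without TKO-labelled replicate 1 and 3 without TKO-labelled replicate 4. They became 5 without Control replicate 2, 5 without Control replicate 3 and 3 without Control replicate 4. Over all tested genes, the 1448 became 1438, 836, 1071, 1061 and 1130 in these same runs. There were 12 without TKO-labelled replicate 2 (1573 over all tested genes), 9 without TKO-labelled replicate 3 (1337) and 9 without Control replicate 1 (1510).

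**Figure D1:**
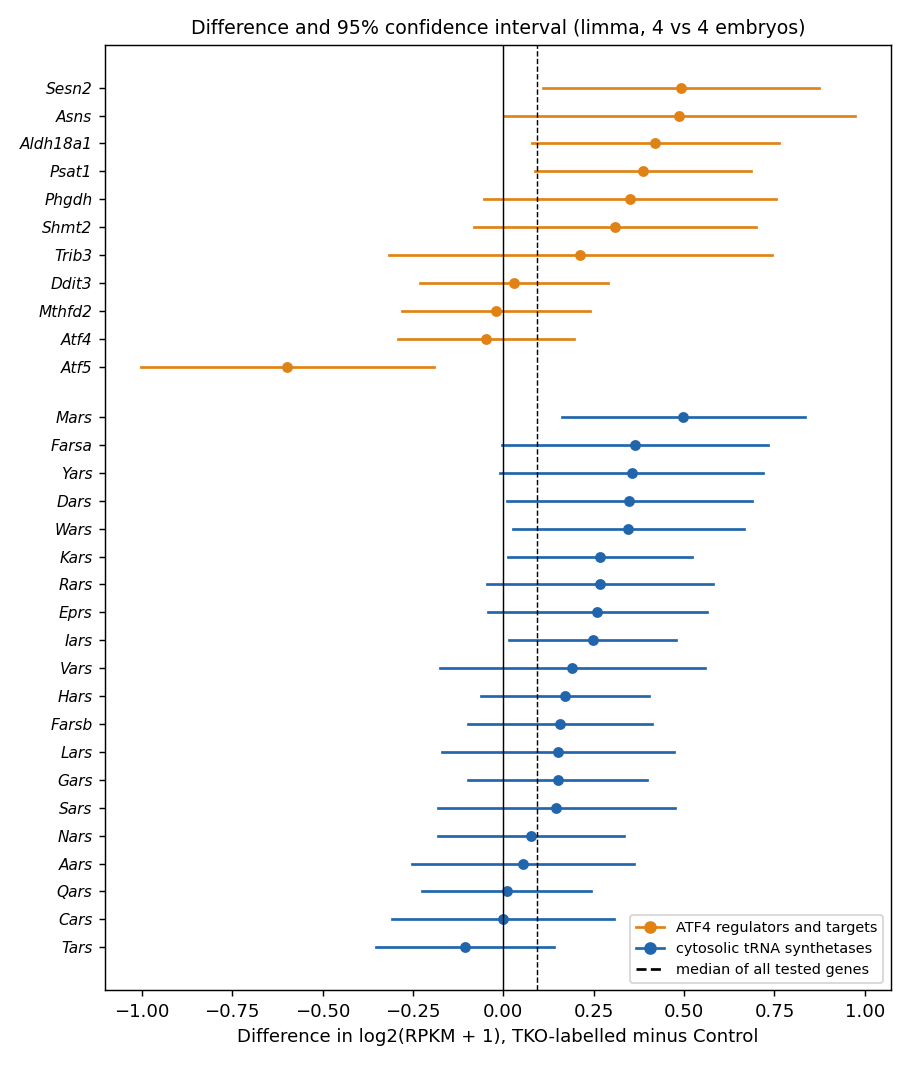
Difference in log2(RPKM + 1), TKO-labelled minus Control, on the horizontal axis for the 31 tested genes, with points for the limma estimate and lines for its 95% confidence interval (4 embryos a group). Most points lie right of 0, Atf5 lies farthest left at -0.60, and the dashed line marks the median of all tested genes, 0.09.

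The DNA letters through which ATF4 is known to act are present at some of these genes. The core of the C/EBP-ATF response element, TGATGNAA, was searched on both strands of RefSeq promoter windows that run from 250 bases before to 50 bases after the gene start (GRCm38.p6). A window was found for 26 of the 33 genes, while Cars, Hars, Lars, Nars, Rars, Vars and Wars had none. For Trib3, Dars, Kars and Sars, the bases checked after the window's gene start were not found in the gene's annotated transcripts. Vldlr had 2 windows, and its match lies in the second only. The core occurred in 9 of these 26 genes (34.6%), against 1219 of 27025 genes with a window (4.51%) and 3.97% of all windows of this length. The core was found in 1 of 4 regulators, 3 of 9 targets and 5 of 13 synthetases. Many of the 33 genes were chosen as known ATF4 targets, so a share above that of all genes was built into the choice and is not a result. Matches are shown for most of these genes because they let well-known ATF4 genes be read side by side. Each line gives 30 bases around a match, 5′ to 3′ on the strand that reads TGATGNAA, with the element in capitals and coordinates in GRCm38.
Trib3 (chr2:152344028-152344057, plus strand): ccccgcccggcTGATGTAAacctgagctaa
Asns (chr6:7693214-7693243, minus strand): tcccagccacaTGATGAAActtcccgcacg
Chac1 (chr2:119351038-119351067, minus strand): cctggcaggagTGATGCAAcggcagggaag
Vldlr (chr19:27216809-27216838, minus strand): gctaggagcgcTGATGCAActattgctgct
Gars (chr6:55037960-55037989, minus strand): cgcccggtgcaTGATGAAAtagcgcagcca
Iars (chr13:49682126-49682155, minus strand): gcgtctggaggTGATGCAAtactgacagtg
Tars (chr15:11399655-11399684, plus strand): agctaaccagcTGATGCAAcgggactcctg
Yars (chr4:129189895-129189924, plus strand): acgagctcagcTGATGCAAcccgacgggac

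The variable base of the element is C in most of these lines, A in Asns and Gars, and T in Trib3. The 7 tested genes that carry the core in the window had a median difference of 0.21 in log2(RPKM + 1), from -0.11 for Tars to 0.49 for Asns, with 6 of 7 positive. The 17 tested genes whose window lacks it had a median difference of 0.27, with 14 of 17 positive (66.5% over all tested genes). Their differences ran from -0.60 for Atf5 to 0.50 for Mars. The upper ends of these ranges were alike. A match is only a description of the sequence, and the absence of one says nothing about letters outside the window.

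Among the regulators, Atf4 had RPKM levels near 100 in every embryo. It measured 111, 102, 89.5 and 94.3 RPKM in TKO-labelled embryos, against 97.3, 102, 94.3 and 117 RPKM in Control embryos. The groups overlapped throughout, and the difference was -0.05 in log2(RPKM + 1) with a standard error of 0.11 and a 95% confidence interval of -0.29 to 0.20 (limma, adjusted p = 0.848). Its exact permutation p was 0.571, two-sided, where 0.0286 is the smallest that 4 against 4 embryos can give. Every gene whose groups do not overlap has this smallest permutation p, so it adds nothing to the non-overlap. Permutation p-values are not adjusted. Of all tested genes, 7.55% lay higher and 1.86% lower without overlap.

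Atf5, a close relative of ATF4 that is likewise translated under eIF2 phosphorylation, was low in all embryos. It measured 1.11, 0.459, 1.13 and 0.896 RPKM in TKO-labelled embryos, against 1.34, 1.48, 2.69 and 2.06 RPKM in Control embryos. Every TKO-labelled value lay below every Control value. The difference was -0.60 in log2(RPKM + 1) with a standard error of 0.18 (95% interval -1.0 to -0.19), with limma adjusted p = 0.182. Non-overlap fixes its exact permutation p at 0.0286. With a pseudocount of 0.1 in place of 1 the difference was -1.01 (limma adjusted p = 0.189). The level reached 1 RPKM in 6 of the 8 embryos, so the gene is close to the filter.

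Ddit3, which encodes the pro-apoptotic factor CHOP downstream of ATF4, measured 24.3, 23.9, 23.6 and 21.1 RPKM in TKO-labelled embryos, against 22.7, 27.5, 19.8 and 21.6 RPKM in Control embryos. The 4 TKO-labelled values lie inside the Control range, and the difference was 0.03 in log2(RPKM + 1) (95% interval -0.23 to 0.29, limma adjusted p = 0.916). Trib3, a pseudokinase induced by ATF4 and CHOP that feeds back on them, measured 4.91, 2.51, 1.51 and 2.74 RPKM in TKO-labelled embryos, against 3.07, 2.41, 1.91 and 1.66 RPKM in Control embryos. The highest and the lowest Trib3 values both came from TKO-labelled embryos, and the difference was 0.21 with an interval of -0.32 to 0.74 (limma adjusted p = 0.671).

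**Figure D2:**
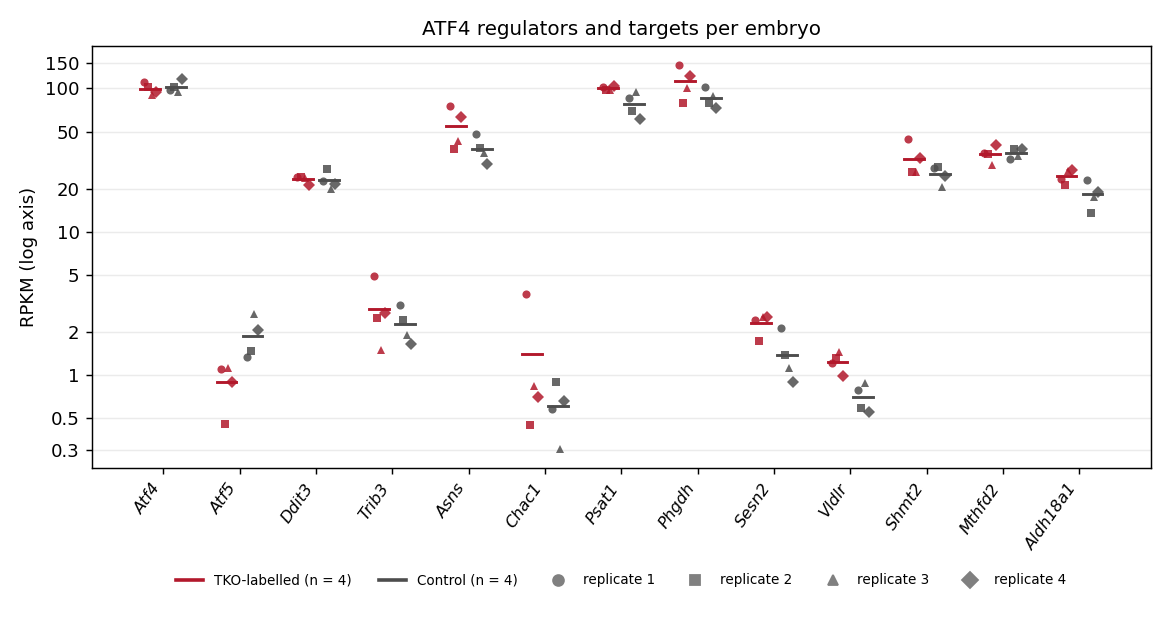
RPKM on a log axis for the 4 regulators and 9 targets of ATF4 in each embryo, TKO-labelled left of Control, with horizontal bars for group means (n = 4 each) and marker shapes for replicate numbers. Atf4 and Ddit3 overlap fully, Psat1 and Vldlr have all TKO-labelled points above the Control points, and Atf5 has all of them below.

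Differences between the embryo groups had a higher median in the target enzymes than in the 4 genes listed as regulators, which was not tested. Ddit3 and Trib3, listed as regulators, are themselves known to act downstream of ATF4. Of the 7 targets tested, 6 had positive differences (66.5% over all tested genes), 4 of them at an unadjusted limma p under 0.05 (13.9% over all tested genes), and the median was 0.39 in log2(RPKM + 1). The 4 regulators had 2 positive differences and a median of -0.01. Only Mthfd2 among the tested targets had a negative difference, of -0.02, and 0 of 7 passed the adjusted threshold.

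The serine pathway enzymes were among the most abundant of these RNAs. Psat1, the phosphoserine aminotransferase, measured 102, 97.1, 97.9 and 104 RPKM in TKO-labelled embryos, against 85.1, 69.97, 94.1 and 60.8 RPKM in Control embryos. The TKO-labelled embryos were close together, with a mean of 100.3 ± 3.28 RPKM, and all lay above the Control embryos, whose mean was 77.5 ± 14.9 RPKM (SD, n = 4 each). The difference was 0.39 in log2(RPKM + 1) with a standard error of 0.14 (95% interval 0.09 to 0.69), with limma adjusted p = 0.211. Non-overlap fixes its exact permutation p at 0.0286. Phgdh, the dehydrogenase that opens serine synthesis from a glycolytic intermediate, measured 145, 79.1, 100.4 and 123 RPKM in TKO-labelled embryos, against 103, 79.0, 88.7 and 73.3 RPKM in Control embryos. TKO-labelled replicate 2 was at the level of Control replicate 2, so the groups overlapped, and the difference was 0.35 (95% interval -0.05 to 0.75, limma adjusted p = 0.343).

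Shmt2, which splits serine in mitochondria and loads a carbon unit onto folate, measured 44.1, 25.9, 26.1 and 32.8 RPKM in TKO-labelled embryos, against 27.9, 28.5, 20.5 and 24.7 RPKM in Control embryos. Its difference was 0.31 in log2(RPKM + 1) with limma adjusted p = 0.383. Mthfd2, the next mitochondrial folate enzyme, averaged 35.0 ± 4.45 RPKM in TKO-labelled and 35.3 ± 2.89 RPKM in Control embryos (SD, n = 4 each), with limma adjusted p = 0.946. These neighbouring steps of the folate route thus had unlike differences, which were not tested against each other.

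Asns, the asparagine synthetase and a classic amino acid response gene, measured 75.4, 37.6, 42.8 and 63.4 RPKM in TKO-labelled embryos, against 47.9, 38.4, 35.4 and 29.8 RPKM in Control embryos. TKO-labelled replicates 1 and 4 lay above every Control embryo, and replicates 2 and 3 lay within the Control range. Its difference was 0.49 in log2(RPKM + 1) with a standard error of 0.22, with limma adjusted p = 0.286 and exact permutation p = 0.171. Aldh18a1, which starts proline synthesis from glutamate, measured 23.2, 21.4, 26.5 and 26.9 RPKM in TKO-labelled embryos, against 23.1, 13.5, 17.4 and 19.0 RPKM in Control embryos. Control replicate 1 alone reached into the TKO-labelled range, and the difference was 0.42 with an interval of 0.08 to 0.76 (limma adjusted p = 0.222).

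Sesn2, a sestrin that restrains mTORC1 when leucine is short, was a low RNA. It measured 2.43, 1.72, 2.54 and 2.53 RPKM in TKO-labelled embryos, against 2.14, 1.385, 1.12 and 0.89 RPKM in Control embryos. Only TKO-labelled replicate 2 and Control replicate 1 crossed, and the difference was 0.49 with a standard error of 0.17 (95% interval 0.11 to 0.87), with limma adjusted p = 0.211 and exact permutation p = 0.0571. With a pseudocount of 0.1 the difference was 0.75 (limma adjusted p = 0.219).

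Chac1 and Vldlr did not pass the filter on low values. Chac1, which degrades glutathione, measured 3.66, 0.449, 0.835 and 0.705 RPKM in TKO-labelled embryos, against 0.578, 0.895, 0.306 and 0.665 RPKM in Control embryos. TKO-labelled replicate 1 stood apart and the other 7 embryos were mixed (exact permutation p = 0.400, two-sided). Vldlr, the very low density lipoprotein receptor, measured 1.21, 1.32, 1.45 and 0.983 RPKM in TKO-labelled embryos, against 0.786, 0.595, 0.877 and 0.552 RPKM in Control embryos. Its groups did not overlap (which fixes the exact permutation p at 0.0286), at a level that only 3 embryos raised above 1 RPKM.

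The cytosolic synthetases were abundant and closely spaced between the groups. In Control embryos the mean level ran, high to low, from Gars, Nars, Kars, Rars, Tars and Farsb through Sars, Eprs, Qars, Hars, Dars, Farsa, Iars and Lars to Yars, Aars, Vars, Mars, Wars and Cars. The highest of them, Gars, averaged 138 RPKM in TKO-labelled and 125 RPKM in Control embryos, and the lowest, Cars, 16.9 RPKM in TKO-labelled and 17.02 RPKM in Control embryos. Many neighbours in this order lie closer together than the spread between embryos, as the plot of synthetase levels shows. Of the 20 differences 18 were positive (66.5% over all tested genes) and 5 were higher at an unadjusted limma p under 0.05 (13.9% over all tested genes). The median was 0.18 in log2(RPKM + 1), against 0.09 over all tested genes. Under median-ratio scaling 15 were positive and the median was 0.10. Over all tested genes that scaling gave 53.6% positive and a median of 0.02.

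**Figure D3:**
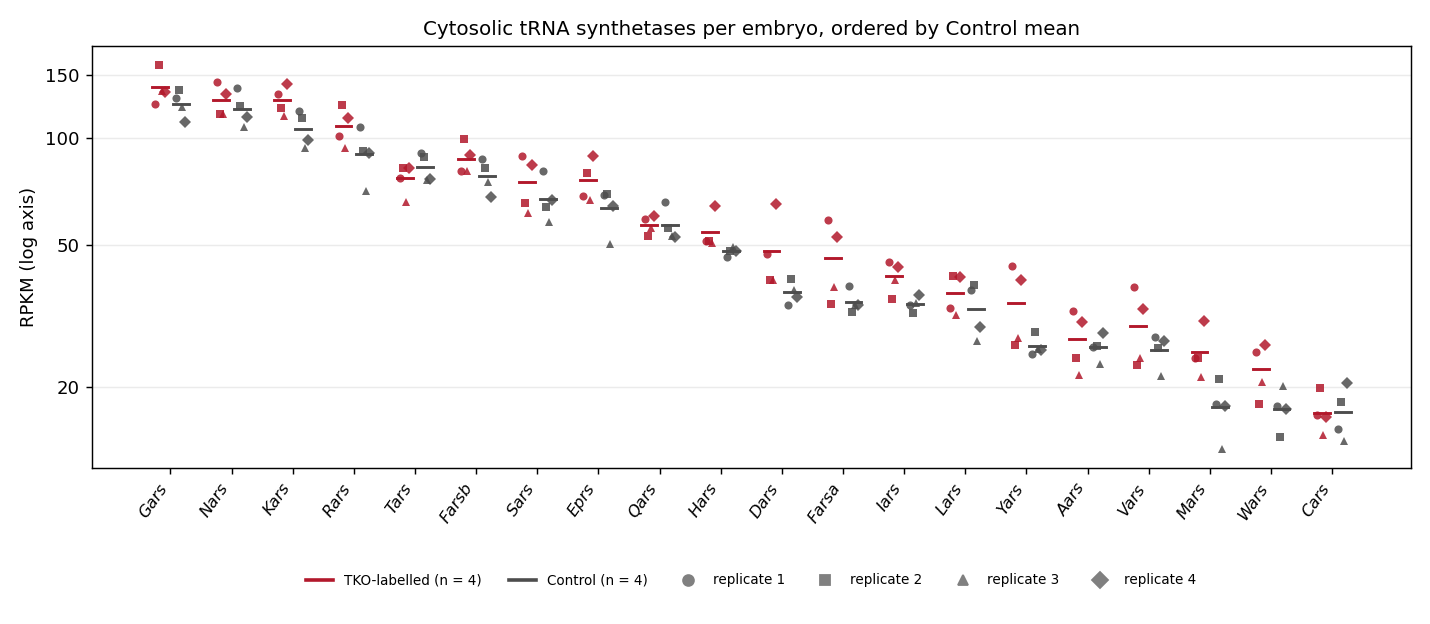
RPKM on a log axis for the 20 cytosolic tRNA synthetases in each embryo, ordered by Control mean, TKO-labelled left of Control, with bars for group means (n = 4 each) and shapes for replicate numbers. Mars and Hars have all TKO-labelled points above the Control points, Tars has the lower TKO-labelled mean, and Cars is level.

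Mars, the methionyl enzyme, had the largest difference of the synthetases on this scale. It measured 24.1, 24.1, 21.4 and 30.7 RPKM in TKO-labelled embryos, against 18.0, 21.1, 13.4 and 17.6 RPKM in Control embryos. The groups did not overlap, by a narrow margin between TKO-labelled replicate 3 and Control replicate 2. The difference was 0.50 in log2(RPKM + 1) with a standard error of 0.15 (95% interval 0.16 to 0.83), with limma adjusted p = 0.182. Non-overlap fixes its exact permutation p at 0.0286.

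Hars, the histidyl-tRNA synthetase, also did not overlap, at a smaller difference. It measured 51.3, 51.3, 50.7 and 64.5 RPKM in TKO-labelled embryos, against 46.4, 48.1, 49.4 and 48.1 RPKM in Control embryos. TKO-labelled replicate 4 stood apart from the other 3, and the difference was 0.17 with an interval of -0.06 to 0.40 (limma adjusted p = 0.423).

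The 5 after Mars by p-value were the enzymes for tryptophan, isoleucine, lysine, aspartate and phenylalanine. Wars measured 25.03, 18.0, 20.7 and 26.3 RPKM in TKO-labelled embryos, against 17.7, 14.4, 20.1 and 17.4 RPKM in Control embryos, a difference of 0.35 (limma adjusted p = 0.255). Iars measured 44.98, 35.4, 39.9 and 43.3 RPKM in TKO-labelled embryos, against 33.9, 32.2, 34.4 and 36.2 RPKM in Control embryos, a difference of 0.25 (limma adjusted p = 0.261). In both, TKO-labelled replicate 2 was the embryo that fell within the Control range.

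Kars measured 132, 121, 115 and 142 RPKM in TKO-labelled embryos, against 119, 114, 93.6 and 98.5 RPKM in Control embryos, a difference of 0.27 (limma adjusted p = 0.264). Dars measured 47.2, 40.01, 40.02 and 65.0 RPKM in TKO-labelled embryos, against 33.9, 40.2, 37.5 and 35.7 RPKM in Control embryos, a difference of 0.35 (limma adjusted p = 0.275). Farsa, the alpha subunit of the phenylalanine enzyme, measured 58.8, 34.1, 38.2 and 52.8 RPKM in TKO-labelled embryos, against 38.4, 32.4, 34.0 and 34.0 RPKM in Control embryos (limma adjusted p = 0.290). Dars and Farsa were highest in TKO-labelled replicates 1 and 4 and near Control values in replicates 2 and 3. Farsb, the partner beta subunit, averaged 87.4 RPKM in TKO-labelled and 78.3 RPKM in Control embryos, a difference of 0.16 (limma adjusted p = 0.498).

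The other 12 differences ran from -0.11 for Tars (77.0 RPKM in TKO-labelled and 82.9 RPKM in Control embryos, limma adjusted p = 0.646) to 0.35 for Yars, the tyrosyl enzyme (limma adjusted p = 0.299). Between them lay Rars at 0.27, Eprs at 0.26, Vars at 0.19, Lars, Gars and Sars each at 0.15, Nars at 0.08, Aars at 0.05 and Qars at 0.01, with Cars level. Under median-ratio scaling the differences of Aars, Nars and Qars turned negative.

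The 20 enzymes were also divided by what is known of them. The 12 that are commonly listed as ATF4 targets (Aars, Cars, Eprs, Gars, Iars, Lars, Mars, Nars, Sars, Tars, Wars and Yars) had a median difference of 0.15 in log2(RPKM + 1), 10 of them positive. The other 8 had a median difference of 0.23, 8 of 8 positive. The 8 that sit in the cytosolic multi-synthetase complex (Dars, Eprs, Iars, Kars, Lars, Mars, Qars and Rars) had a median of 0.26, 8 of 8 positive, 4 of them at an unadjusted limma p under 0.05, where all tested genes had 66.5% positive and 13.9% higher at that p. Its 3 scaffold proteins had a median of 0.06. Aimp1 averaged 161 RPKM in TKO-labelled and 164 RPKM in Control embryos, Aimp2 averaged 95.3 RPKM in TKO-labelled and 92.1 RPKM in Control embryos, and Eef1e1 averaged 134 ± 23.2 RPKM in TKO-labelled and 108 ± 7.27 RPKM in Control embryos (SD, n = 4 each; limma adjusted p = 0.264 for Eef1e1).

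The embryos contributed unequally to these values. Of the 33 genes, TKO-labelled replicates 1 to 4 held the highest of the 8 values for 12, 4, 2 and 9 genes, and Control replicates 1 to 4 for 2, 1, 1 and 2 genes. The lowest value lay in TKO-labelled replicates 1 to 4 for 0, 1, 5 and 0 genes, and in Control replicates 1 to 4 for 3, 4, 12 and 8 genes. The median deviation from the Control mean over the 33 genes was 0.35, 0.05, 0.08 and 0.33 in log2(RPKM + 1) for TKO-labelled replicates 1 to 4, and 0.13, 0.04, -0.12 and -0.03 for Control replicates 1 to 4. TKO-labelled replicates 1 and 4 thus sat higher than the other 2 with the same label. Among the 31 tested genes, TKO-labelled replicates 1 and 4 held the highest value for 35.5% and 29.0%, where the shares over all tested genes were 19.5% and 23.7%. TKO-labelled replicate 1 held the lowest value for 0% of the 31, against 12.6% of all tested genes.

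**Figure D4:**
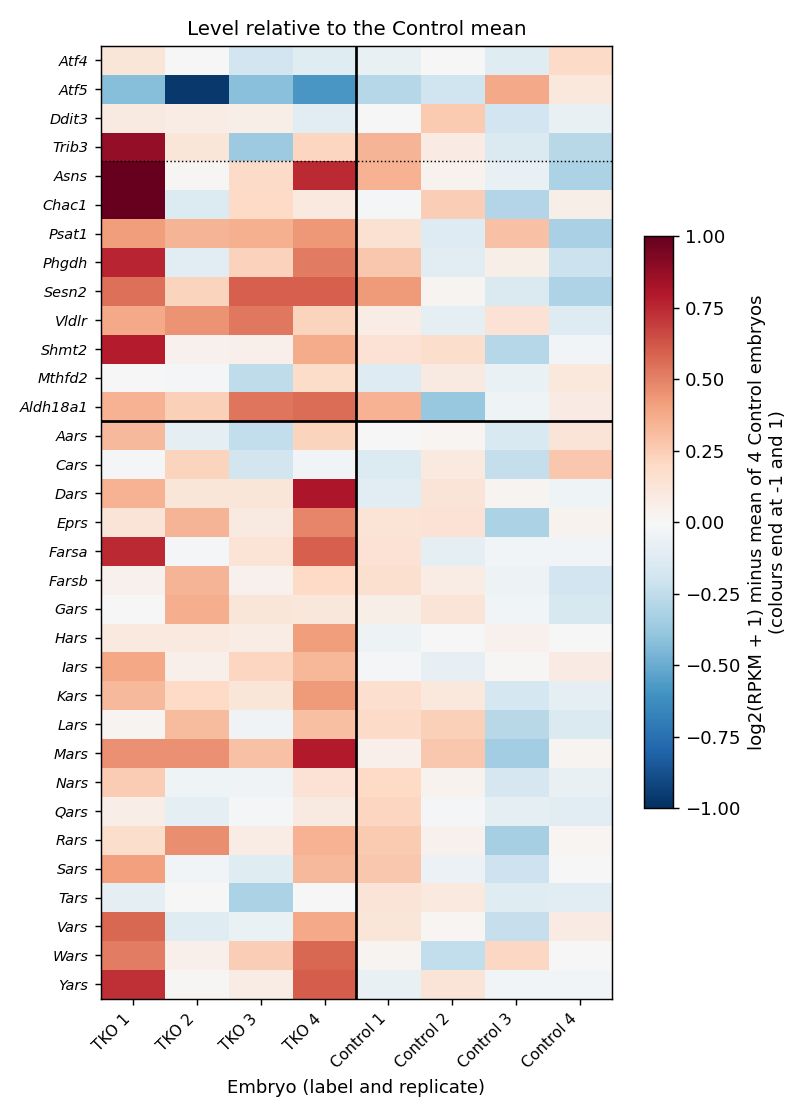
Each embryo's log2(RPKM + 1) minus the mean of the 4 Control embryos, in colour from -1 to 1, for the 33 genes in rows and the 8 embryos in columns, TKO-labelled left of Control; lines separate regulators, targets and synthetases. Red is densest in the columns of TKO-labelled replicates 1 and 4, and Atf5 is blue in all 4 TKO-labelled embryos.

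Summed over the 9 targets, the level was 433, 299.5, 328 and 394 RPKM in TKO-labelled embryos, against 323, 269.9, 292 and 248 RPKM in Control embryos. Summed over the 20 synthetases, it was 1292, 1238, 1122 and 1371 RPKM in TKO-labelled embryos, against 1207, 1151, 1006 and 1062 RPKM in Control embryos. In both sums 3 of 4 TKO-labelled values exceeded the highest Control value, and the other fell within the Control range. In whole embryos, more cells of a type and more RNA per cell cannot be told apart.

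Sums of tissue markers were followed in the same embryos. The 7 epiblast markers summed to 876, 529.7, 455 and 669.9 RPKM in TKO-labelled embryos, against 449, 602, 479.9 and 576 RPKM in Control embryos. In this sum replicates 1 and 4 were the highest of the TKO-labelled embryos, as for the summed ATF4 targets. The single markers disagreed. Dnmt3b, the largest part of the sum, Utf1, Pou5f1 and Pou3f1 were also highest in TKO-labelled replicates 1 and 4. Nanog and Fgf5 were highest in TKO-labelled replicate 2, and Sall4 was higher in replicate 2 than in 4. The 12 parietal endoderm markers, of a secretory membrane-laying tissue, summed to 263, 709, 929 and 604 RPKM in TKO-labelled embryos, against 259, 158, 214 and 312 RPKM in Control embryos. Of their differences 12 of 12 were positive (66.5% over all tested genes) and 0 passed the adjusted limma threshold. The 8 decidua markers, of maternal tissue, summed to 41.9, 20.5, 422 and 83.1 RPKM in TKO-labelled embryos, against 239, 3.68, 499 and 314 RPKM in Control embryos. Visceral endoderm markers summed to 1143, 1223, 1412 and 1115 RPKM in TKO-labelled embryos, against 1856, 1023, 519 and 644 RPKM in Control embryos. The 5 blood markers listed summed to 2.06, 0.18, 20.8 and 3.44 RPKM in TKO-labelled embryos, against 13.6, 0.15, 29.0 and 13.6 RPKM in Control embryos. Most of that sum was S100a8, a neutrophil gene, in every embryo but Control replicate 2, where S100a8 was at 0, while Hbb-y, an embryonic globin, was listed at 0 in all 8 embryos. The part of these tissues in the ATF4 and synthetase values was not tested.

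Upstream of ATF4, the eIF2 list covers the 4 eIF2 kinases, the phosphatase subunits, eIF2 itself and its exchange factor eIF2B. Of 14 genes tested, 11 had positive differences, 4 of them at an unadjusted limma p under 0.05 and 0 past the adjusted threshold, where all tested genes had 66.5% positive and 13.9% higher at that p. The median was 0.12 in log2(RPKM + 1), against 0.09 over all tested genes. Eif2s1, the eIF2 subunit that the kinases phosphorylate, measured 119, 112, 101 and 160.4 RPKM in TKO-labelled embryos, against 86.5, 82.3, 66.8 and 65.2 RPKM in Control embryos. The groups did not overlap, and the difference was 0.69 with a standard error of 0.16 (limma adjusted p = 0.136). Eif2b1, an eIF2B subunit, averaged 66.1 ± 17.2 RPKM in TKO-labelled and 41.3 ± 5.16 RPKM in Control embryos (SD, n = 4 each), a difference of 0.64 without overlap (limma adjusted p = 0.157). Picked after their values were seen, Eif2b2 had a difference of 0.67 without overlap, and Eif2b3 one of 0.47 with overlap. The remaining subunits lay near 0, with Eif2b4 at -0.04, Eif2b5 at 0.06, Eif2s2 at -0.06 and Eif2s3x at 0.09. In the list, 3 of 14 genes had all TKO-labelled values above the Control values, against 7.55% of all tested genes. The kinases Eif2ak1 to Eif2ak4 (HRI, PKR, PERK and GCN2) had differences of 0.23, 0.19, 0.14 and 0.07.

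Other genes known as ATF4 or CHOP targets went in several directions. Of 20 listed, 15 were tested and 10 had positive differences, with a median of 0.16 in log2(RPKM + 1). At an unadjusted limma p under 0.05, 1 was higher and 1 lower. All tested genes had 66.5% positive, a median of 0.09, and 13.9% higher and 3.6% lower at that p. Cth, which makes cysteine from cystathionine, measured 18.9, 14.0, 13.1 and 17.4 RPKM in TKO-labelled embryos, against 8.46, 12.6, 9.87 and 8.92 RPKM in Control embryos, without overlap (difference 0.62, limma adjusted p = 0.156). Cebpb, a C/EBP partner that joins ATF4 at response elements, averaged 4.15 ± 2.69 RPKM in TKO-labelled and 9.45 ± 4.78 RPKM in Control embryos (SD, n = 4 each), a difference of -1.05 (limma adjusted p = 0.247). Its highest TKO-labelled value, 7.49 RPKM, and its highest Control value, 15.1 RPKM, lay in replicate 3 of each label, where the decidua markers were also highest, and their part in Cebpb was not tested.

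Amino acid supply was followed through uptake and synthesis. Of 11 transporters linked to ATF4, 9 were tested and 5 of these (55.6%) had positive differences, against 66.5% of all tested genes. Their median difference was 0.12, against 0.09 over all tested genes. In either direction, 0 of the 9 reached an unadjusted limma p under 0.05. The shares of all tested genes that did so were 13.9% higher and 3.6% lower. Slc7a3, a cationic amino acid transporter, averaged 65.5 ± 23.4 RPKM in TKO-labelled and 43.5 ± 16.6 RPKM in Control embryos (SD, n = 4 each; limma adjusted p = 0.316). Slc3a2, the heavy chain shared by several exchangers, averaged 62.0 RPKM in TKO-labelled and 48.5 RPKM in Control embryos (limma adjusted p = 0.323). Among partners of serine, folate and proline synthesis, 7 of 9 tested had positive differences (66.5% over all tested genes), with a median of 0.16. There Tyms, the thymidylate synthase, averaged 38.0 RPKM in TKO-labelled and 26.4 RPKM in Control embryos without overlap (limma adjusted p = 0.160), and Pycrl, a proline-forming reductase, 34.3 RPKM in TKO-labelled and 27.6 RPKM in Control embryos (limma adjusted p = 0.279).

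The mitochondrial synthetases, which charge tRNAs for the organelle's own translation, had a median difference of 0.20 in log2(RPKM + 1), against 0.09 over all tested genes. Of these, 14 of 17 were positive (66.5% over all tested genes) and 0 passed the adjusted threshold. Wars2 averaged 2.30 RPKM in TKO-labelled and 1.54 RPKM in Control embryos (limma adjusted p = 0.205), and Rars2 26.1 RPKM in TKO-labelled and 20.3 RPKM in Control embryos (limma adjusted p = 0.211), both without overlap. The ATF6 and XBP1 branches of the unfolded protein response raise chaperones of the endoplasmic reticulum. There 16 of 19 tested genes had positive differences (66.5% over all tested genes), with a median of 0.24. Xbp1 measured 29.8, 44.3, 52.7 and 47.5 RPKM in TKO-labelled embryos, against 30.9, 22.3, 28.3 and 30.0 RPKM in Control embryos (difference 0.61, limma adjusted p = 0.173). Sdf2l1, an endoplasmic reticulum chaperone partner, averaged 22.2 RPKM in TKO-labelled and 16.3 RPKM in Control embryos (limma adjusted p = 0.239). Xbp1 was lowest of the TKO-labelled embryos in replicate 1, as the parietal endoderm markers were, whereas Asns and Trib3 were highest there.

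**Figure D5:**
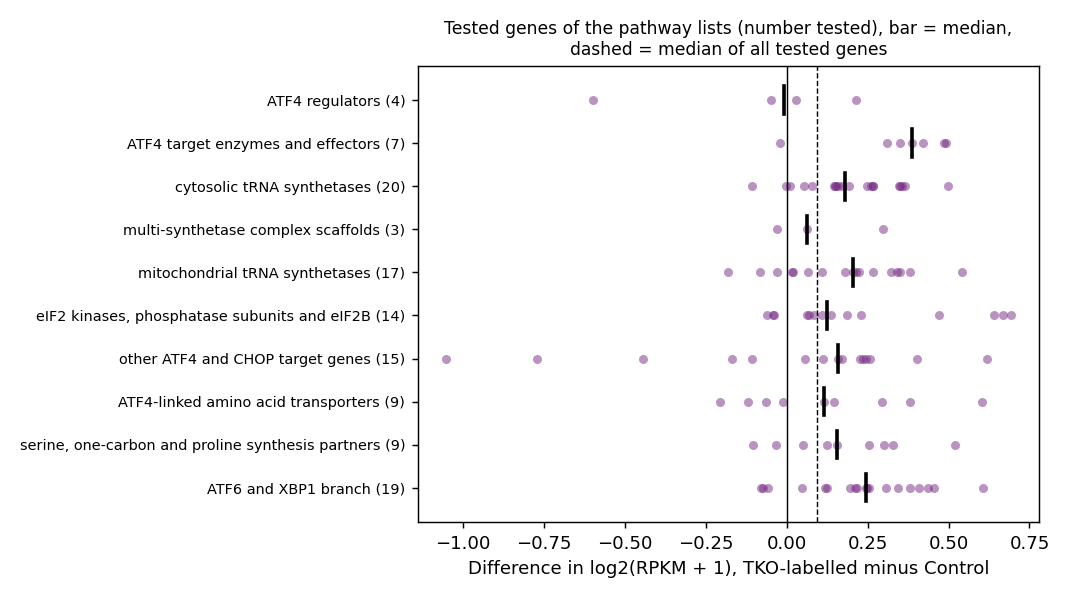
Difference in log2(RPKM + 1), TKO-labelled minus Control, for each tested gene (points) of the 3 groups above and of 7 further pathway lists, with the number tested in parentheses, a bar at each list's median and a dashed line at the median of all tested genes, 0.09. The targets have the highest median, 0.39, and the widest range is that of the other ATF4 and CHOP targets, with Cebpb at -1.05.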

How the data were processed

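RNA from 4 TKO-labelled and 4 Control embryos was made into SMARTer cDNA and Nextera XT libraries for Illumina sequencing, per the labels' protocols. The deposited table holds RPKM, which the authors computed (the unit is that of its name), with a row for each gene symbol and a column for each embryo. Per the submitters' processing notes, HTSeq (no version) and build mm9 were used. Not given in the sources used here are the aligner, gene models, read total and use of strand, so reads of overlapping, antisense or near-identical genes cannot be told apart.

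Groups were compared by fitting log2(RPKM + 1) in limma 3.58.1 (R 4.3.3), using the variance trend and no block, for genes that reached 1 RPKM in 4 or more of 8 embryos. P-values are two-sided, adjusted by Benjamini-Hochberg over 10451 genes. A log2 difference is TKO-labelled minus Control and understates the change of low genes. An exact permutation for single genes ran over 70 assignments. All p-values measure only how these 8 embryos vary. Depth was estimated from the smallest RPKM values and GENCODE M21 transcript lengths. Whole reads were not recovered, so no count test was used. Promoter sequences and coordinates are RefSeq's (GRCm38.p6), another build than the values', and not every match is reported here.

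The genes and lists were chosen with earlier results of these data known. Every one of the 33 genes is named. Values per embryo are given for Atf4, Ddit3, Asns, Chac1 and Trib3 and for those of the 33 whose groups do not overlap. They are also given for the 6 smallest p-values among regulators with targets and among synthetases and, outside this rule, for Shmt2. Of each further pathway list the 2 genes with the smallest p are named. Other genes outside the 33, apart from Tet1, Tet2 and Tet3, were chosen after their values were seen; tissue marker lists are given as sums. The alternatives were the pseudocount, the filter, median-ratio scaling, no variance trend, a replicate block and leaving out each embryo.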

Additional observations from a re-analysis of the deposited data

Results flagged for a closer look

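In 3 of 66 groups of 4 embryos, 1 embryo stood apart from the other 3 by Dixon's criterion, and chance alone gives about 1 in 20 groups. Chac1 was at 3.66 RPKM in TKO-labelled replicate 1, where the other 3 TKO-labelled embryos lay between 0.449 and 0.835 RPKM. Sesn2 was at 1.72 RPKM in TKO-labelled replicate 2, below the other 3 at 2.43 to 2.54 RPKM. Hars was at 64.5 RPKM in TKO-labelled replicate 4, above the other 3 at 50.7 to 51.3 RPKM.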

How the results depend on the processing

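None of the 33 genes passed the adjusted limma threshold under any alternative run. The median difference stayed positive in each, at 0.15 to 0.40 for regulators with targets (0.31 as reported) and 0.10 to 0.25 for the synthetases (0.18 as reported). Over all genes, 1 passed higher as reported, 0 with no filter, 2 with an RPKM of at least 1 in all embryos and 0 with a replicate block; leaving out 1 embryo gave 0 to 29 higher and 0 to 7 lower, and the 29 and 7 came without TKO-labelled replicate 1. Genes whose higher values did not overlap numbered 3 of 31 as reported (7.55% over all tested genes) and 0 under median-ratio scaling. With 1 embryo left out there were 3 to 8. Leaving out an embryo can only keep or add such genes among those still tested, so this rise is not a result. The 1 with lower values, Atf5, became 0 when all embryos had to reach 1 RPKM, since it was then not tested.

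Under median-ratio scaling, positive differences numbered 22 of 31 in place of 26. Over all tested genes the positive share was 53.6% in place of 66.5%. Of the 31 genes, 4 turned negative: Ddit3 at -0.053, Aars at -0.029, Nars at -0.0084 and Qars at -0.075. With 1 embryo left out, the difference ran from -0.10 to 0.015 for Atf4, -0.034 to 0.12 for Ddit3, -0.0079 to 0.40 for Trib3, -0.088 to 0.059 for Mthfd2, -0.037 to 0.15 for Aars, -0.081 to 0.088 for Cars and -0.025 to 0.081 for Qars. The count at an unadjusted limma p under 0.05 was 9 higher as reported, 6 with no variance trend and 3 to 12 with 1 embryo left out. Over all tested genes it was 1448, 1409 and 836 to 1573. With a pseudocount of 0.1 the differences of Atf5 and Sesn2 were -1.01 and 0.75, in place of -0.60 and 0.49. Without TKO-labelled replicate 1 those of Asns, Phgdh and Shmt2 were 0.32, 0.21 and 0.15, in place of 0.49, 0.35 and 0.31. The cause of these changes was not tested.

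Same-numbered embryos had correlated deviations of -0.005, 0.402, 0.265 and -0.02, so the numbers were not taken as pairs. The replicate block gave 8 higher and 1 lower at an unadjusted limma p under 0.05. Over all tested genes it gave 1423 higher and 482 lower. Depth limits Chac1, Vldlr, Atf5, Sesn2 and Trib3 most, whose values stay under 5 RPKM.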
